A study of Homo sapiens with 2 samples.

Results

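The hypoxia-inducible factor (HIF) pathway, without the glycolytic enzymes it also controls, was followed in radiation-adapted and wild-type MHH-ES-1 cells, an established human Ewing sarcoma line. The 10 members were chosen by gene symbol: the HIF subunit genes HIF1A, EPAS1 and ARNT, the oxygen sensor genes EGLN1 and EGLN3, the degradation gene VHL, and the target genes VEGFA, CA9, NDRG1 and BNIP3. In the platform annotation 9 of the 10 had a probe, 15 probes in all, out of 20046 named genes on the array. No probe there carried the symbol CA9, which was not analysed here. Total RNA was measured on Illumina bead arrays, 1 array of radiation-adapted cells and 1 of wild-type cells. The description of the radiation-adapted sample carries a dose of 4 Gy. The sources used here give neither the schedule and timing of irradiation, nor the oxygen tension of the cultures, nor whether the adapted cells were 1 clone. With 1 sample a group no difference has a replicate check or a test, and every value below describes these 2 RNA samples.

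Cells sense oxygen through prolyl hydroxylases, encoded by the EGLN genes, which mark the HIF alpha subunits when oxygen is present. The VHL ubiquitin ligase then recognises the marked subunits and sends them to the proteasome. When oxygen is low the alpha subunits persist, pair with ARNT and bind hypoxia response elements, whose core reads ACGTG or GCGTG, near target genes. Much of this control acts on protein, which transcript arrays do not measure. EGLN3, VEGFA, NDRG1 and BNIP3 are textbook targets of the pathway, and EGLN1 is both a sensor and a target.

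The median bead signal was 142.4 on the radiation-adapted and 140.3 on the wild-type array, and 37.4% and 34.3% of 47323 probes were detected (detection p-value under 0.01). All 8 Ewing sarcoma markers with a probe, CD99, EWSR1, FLI1 and NKX2-2 among them, were detected on both arrays. All 5 endothelial markers were below detection. One of 5 epithelial markers (KRT8, wild type) and 1 of 3 leukocyte markers (CD14, radiation-adapted) were detected on a single array. A bulk array cannot tell fewer cells with a transcript from less of it in each cell. Signals were background-corrected, quantile-normalized and put on a log2 scale, and each gene took its detected probe with the highest mean. A ratio is the radiation-adapted minus the wild-type log2 value. A gene was counted as higher or lower when it differed by at least 2-fold.

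Of the 9 members with a probe, 7 were detected, 6 of them on both arrays, and ARNT and EGLN3 were detected on neither. By the 2-fold rule 1 detected member, NDRG1, was higher in the radiation-adapted cells and 0 were lower. By the same rule 12.4% of 11352 detected genes were higher and 10.3% lower, so 1 member of 7 (14.3%) lies near the background. Of all genes past 2-fold 54.6% were thus on the higher side, against 67.0% with median scaling and 71.7% with no scaling between arrays, and HIF1A was then past 2-fold as well (2.21-fold and 2.32-fold). HIF1A was 1.81-fold higher, VEGFA 1.30-fold higher and EPAS1 at least 1.35-fold higher. EGLN1 was 1.69-fold lower, BNIP3 1.36-fold lower and VHL 1.21-fold lower. The median ratio of the 7 detected members was 0.38, against -0.01 over all detected genes. EPAS1 entered that median only through the array where it was high. Over the 6 members detected on both arrays the median was 0.05, against -0.02 over all genes so detected, and over all 9 members with a probe, with no detection filter, it was -0.28, against 0.00. The sign of the median thus depends on which members are counted. Between probes of 1 gene on these arrays the ratio had an SD of 0.45, taken over 2269 genes with several probes detected on both. The differences of VHL and VEGFA and the bound of EPAS1 (0.43) were below that SD, and the difference of BNIP3 was equal to it.

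**Figure D1:**
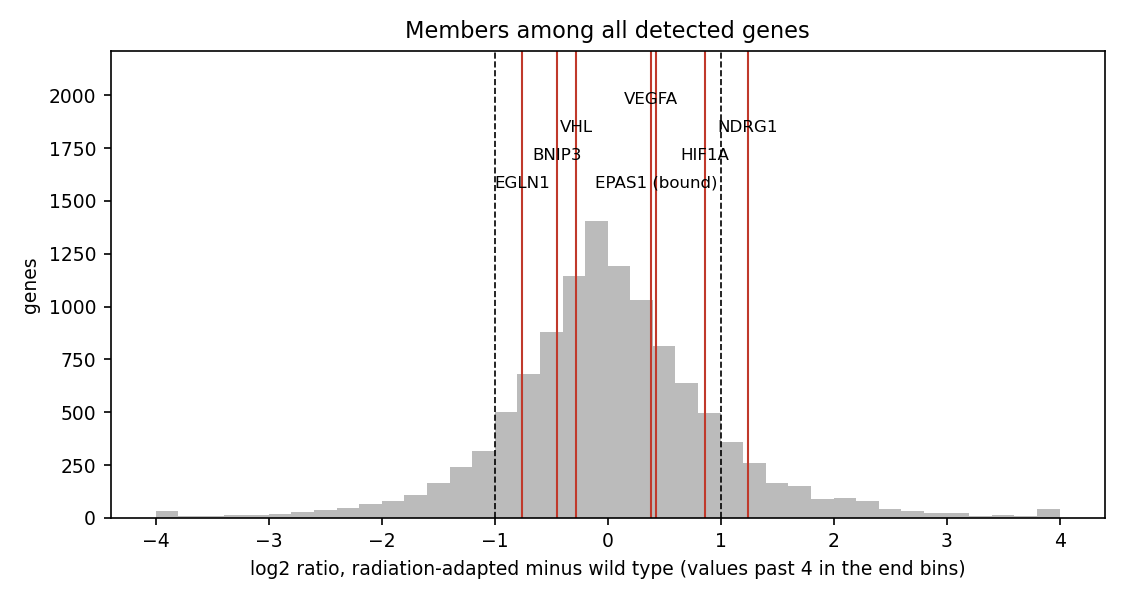
Histogram of the log2 ratio, taken as radiation-adapted minus wild-type value, for all 11352 detected genes, with a red line for each detected member and dashed lines at 2-fold. NDRG1 alone lies past the 2-fold line, and the other 6 members stand among the bulk of the genes, on both sides of 0. The EPAS1 line is a bound.

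Both alpha subunit genes had the higher signal in the radiation-adapted cells. HIF1A, which encodes the widely expressed alpha subunit, was measured by 3 probes annotated to 2 RefSeq transcripts. Their bead signals were 302.4, 304.8 and 222.5 in radiation-adapted cells, against 195.8, 193.7 and 164.9 in wild-type cells. All 3 probes were higher in the radiation-adapted cells, with ratios of 0.86, 0.92 and 0.76. Of all detected genes, 15.3% had a ratio at least as high as the 0.86 of the chosen probe. EPAS1, which encodes HIF-2 alpha, had a signal of 187.4 in radiation-adapted cells (detection p-value 0.0013) and 114.1 in wild-type cells (detection p-value 0.96104). The EPAS1 transcript was therefore detected in the radiation-adapted cells and was not well above background in the wild type. Against the lowest detected signal of the wild-type array (5.60 on the log2 scale) the bound on the difference was 0.43, and 28.4% of genes had a ratio or bound at least as high. EPAS1 passed the detection filter only through the array where it was high, so its direction is no support for that of HIF1A. HIF1A was within 2-fold, and for EPAS1, with a bound only, the size is not settled (3.17-fold with no detection filter). ARNT, the shared partner subunit, had signals of 137.8 in radiation-adapted and 146.3 in wild-type cells, with detection p-values of 0.1987 and 0.07013. Its only named probe was not well above background on either array, so no fold is given.

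Sequences upstream of both alpha subunit genes are shown, with response element cores in capitals, because both genes had the higher signal in radiation-adapted cells. They are the 250 bases before the gene start from RefSeq (GRCh38.p14), written 5′ to 3′ along the gene. The HIF1A stretch is chr14:61695263-61695512 on the + strand and the EPAS1 stretch is chr2:46297157-46297406 on the + strand.
HIF1A: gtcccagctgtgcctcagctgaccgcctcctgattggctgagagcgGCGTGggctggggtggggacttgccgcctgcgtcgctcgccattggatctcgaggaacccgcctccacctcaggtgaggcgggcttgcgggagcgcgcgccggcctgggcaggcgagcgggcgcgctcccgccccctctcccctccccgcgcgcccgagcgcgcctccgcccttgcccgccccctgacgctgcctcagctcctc
EPAS1: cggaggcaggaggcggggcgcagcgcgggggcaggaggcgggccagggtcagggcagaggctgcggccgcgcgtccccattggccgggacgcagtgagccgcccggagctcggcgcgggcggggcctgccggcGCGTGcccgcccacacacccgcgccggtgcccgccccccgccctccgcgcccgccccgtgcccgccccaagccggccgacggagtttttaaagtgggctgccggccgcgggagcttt
Each stretch held 1 core, GCGTG on the strand of the gene, 204 bases before the start of HIF1A and 117 bases before that of EPAS1. RefSeq lists a second start for HIF1A, whose window held no core. ACGTG was found in neither. Over the 300 bases from 250 before to 50 after the start, GCGTG on either strand was present in 36.5% of 35116 promoters, ACGTG in 21.4% and either one in 48.4%. A core is 5 letters long and these windows are rich in G and C (73% for HIF1A and 80% for EPAS1), so a match describes letters only.

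**Figure D2:**
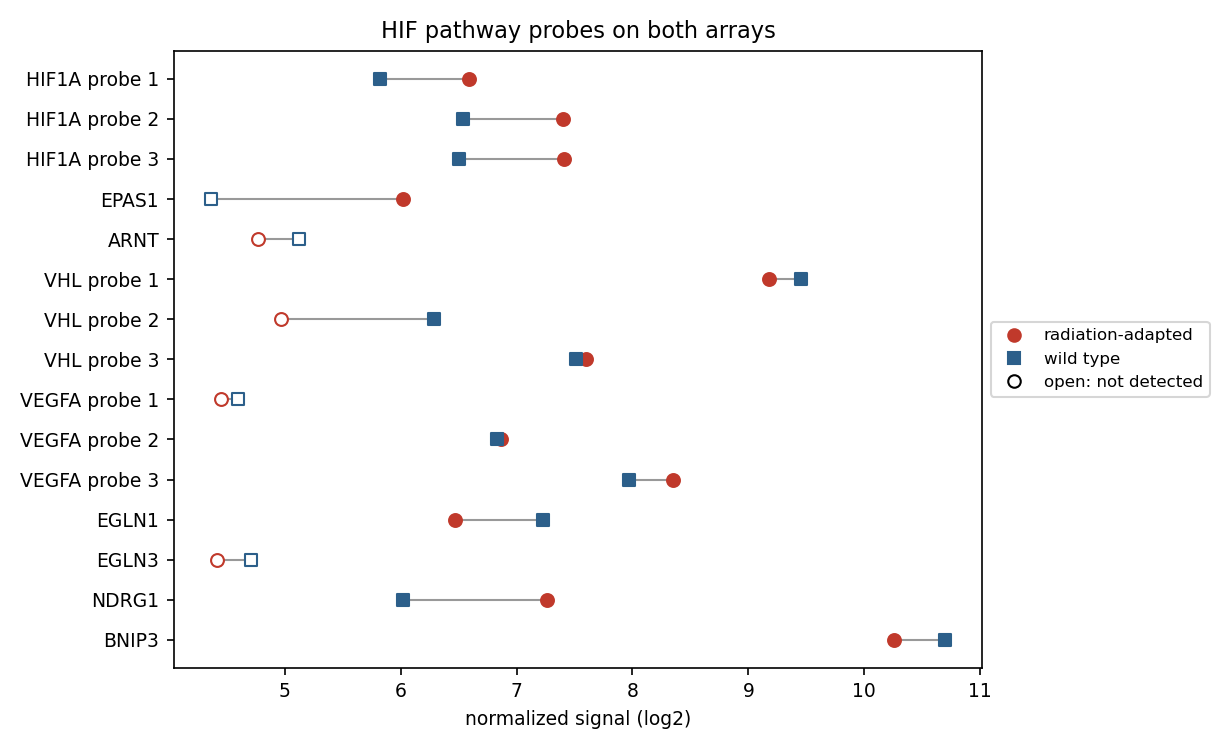
Normalized log2 signal of each of the 15 member probes, with circles for radiation-adapted and squares for wild-type cells, filled where the probe was detected (detection p-value under 0.01). The 3 HIF1A probes and the NDRG1 probe lie to the right in radiation-adapted cells, the EGLN1 and BNIP3 probes to the left, and the probes of VHL disagree.

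Of the sensor and degradation genes, EGLN1 and VHL had ratios below 0 and EGLN3 was undetected. EGLN1, which encodes the main prolyl hydroxylase (PHD2), had a bead signal of 214.0 in radiation-adapted and 246.9 in wild-type cells. After normalization these were 6.47 and 7.23 on the log2 scale, a ratio of -0.76, and 15.8% of detected genes had a ratio at least as low. EGLN1 was the lowest of the detected members at their chosen probes. Without background correction its ratio was -0.38, above that of BNIP3 (-0.41). EGLN3, the hypoxia-inducible hydroxylase PHD3, had signals of 119.5 in radiation-adapted and 134.3 in wild-type cells and detection p-values of 0.85974 and 0.32208. Its probe was below detection on both arrays. VHL, the substrate receptor of the ligase, was measured by 3 probes whose ratios differed. The brightest had signals of 737.8 in radiation-adapted and 771.9 in wild-type cells, a ratio of -0.28. Another probe annotated to the same transcript had 330.8 and 274.8, a ratio of 0.09. The remaining VHL probe, annotated to another transcript, had 144.8 in radiation-adapted cells (detection p-value 0.08442) and 183.0 in wild-type cells (detection p-value 0.0013), which is at least 1.90-fold lower. Which VHL transcripts these probes can tell apart was not tested.

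The ratios of the target genes lay on both sides of 0. NDRG1, a stress-responsive gene induced by hypoxia, had a bead signal of 285.5 in radiation-adapted cells and 171.7 in wild-type cells. It was 2.37-fold higher (normalized 7.26 and 6.02, a ratio of 1.24), and 8.62% of detected genes had a ratio at least as high. The wild-type signal was close to background (detection p-value 0.0026), and without background correction NDRG1 was 1.49-fold higher, which ends the 2-fold call. VEGFA, the main angiogenic ligand gene, was measured by 3 probes annotated to 3 transcripts. The brightest had 476.5 in radiation-adapted and 336.9 in wild-type cells (ratio 0.38), the next had 244.9 and 214.6 (ratio 0.04), and the last was below detection on both arrays. No VEGFA probe came near 2-fold. BNIP3, which encodes a mitophagy receptor at the outer mitochondrial membrane, had 1381.0 in radiation-adapted and 1746.6 in wild-type cells, a ratio of -0.45. Of detected genes 26.2% had a ratio at least as low. Of the 3 detected target genes that are neither sensor nor subunit, NDRG1 and VEGFA thus had ratios above 0 and BNIP3 below 0. Only NDRG1 passed 2-fold, and the ratios of VEGFA and BNIP3 did not exceed the SD of 0.45 between probes of 1 gene.

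The upstream sequences of EGLN1 and BNIP3 are shown because these pathway targets had the lowest ratios among the members, again as the 250 bases before the start in the direction of the gene, with the cores in capitals. The EGLN1 stretch is chr1:231422288-231422537 on the - strand and the BNIP3 stretch is chr10:131981924-131982173 on the - strand.
EGLN1: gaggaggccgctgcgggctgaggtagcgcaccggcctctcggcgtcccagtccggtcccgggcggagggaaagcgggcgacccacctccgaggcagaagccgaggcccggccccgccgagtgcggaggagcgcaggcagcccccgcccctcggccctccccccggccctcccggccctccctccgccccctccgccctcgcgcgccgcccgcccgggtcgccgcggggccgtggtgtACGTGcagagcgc
BNIP3: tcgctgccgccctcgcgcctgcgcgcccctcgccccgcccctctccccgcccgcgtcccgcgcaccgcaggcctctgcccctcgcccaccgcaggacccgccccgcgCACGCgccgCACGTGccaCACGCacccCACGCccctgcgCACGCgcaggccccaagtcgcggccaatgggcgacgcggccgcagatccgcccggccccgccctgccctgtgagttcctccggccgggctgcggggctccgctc
The EGLN1 stretch held 1 ACGTG on the strand of the gene, 13 bases before the start. The BNIP3 stretch held ACGTG on both strands at overlapping places, 134 and 133 bases before the start, and 4 GCGTG on the opposite strand between 143 and 104 bases before it. Those windows had a G and C content of 80% for EGLN1 and 80.7% for BNIP3. The windows of ARNT and EGLN3, which were not detected, held no core. No window was used for VHL, VEGFA and NDRG1, so whether these genes hold a core was not examined.

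**Figure D3:**
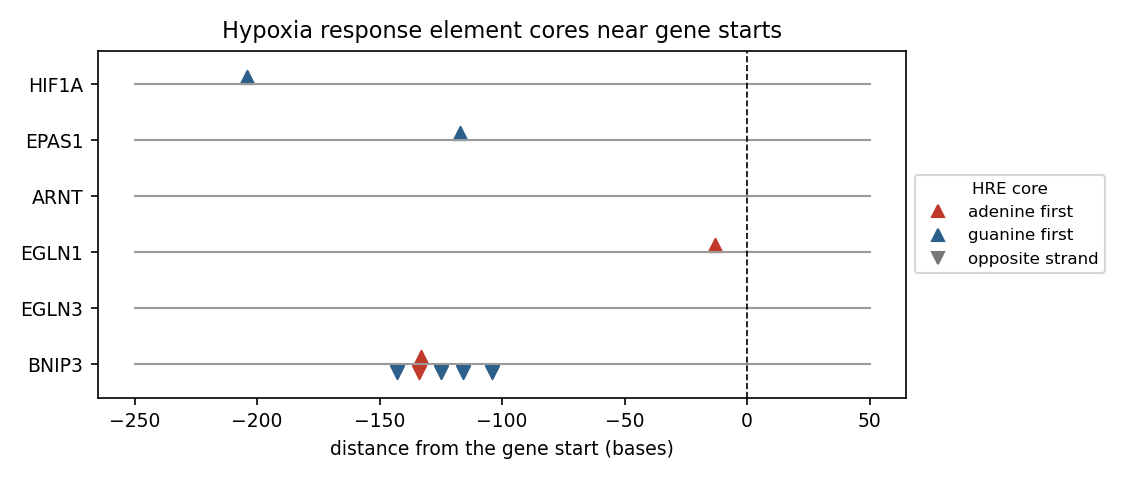
Positions of hypoxia response element cores from 250 bases before to 50 after the RefSeq start of 6 members, with upward triangles for the strand of the gene, downward ones for the opposite strand and colour for the first base of the core. BNIP3 holds a cluster between 143 and 104 bases before its start, EGLN1 a core 13 bases before its start, and HIF1A and EPAS1 a single core each, while ARNT and EGLN3 hold none.

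Ratios of neighbouring genes were set beside those of the members to show whether a member stood apart from the region around it. For each member the 10 detected genes on either side in RefSeq order were taken. NDRG1 lies on chromosome 8, and its 20 neighbours from PVT1 to LINC01300 had a median ratio of 0.97, against 0.14 over the 433 other detected genes of that chromosome. Of those 20, 9 were higher and 1 was lower by the 2-fold rule, and their ratios ran from -1.75 (PVT1) to 4.50 (KHDRBS3). The adjacent genes had ratios of 1.28 (ST3GAL1) on one side and -0.12 (SLA) on the other. The ratio of NDRG1 (1.24) thus lay within the wide spread of its neighbours, above their median. The 20 neighbours of HIF1A on chromosome 14, JKAMP to RAB15, had a median of 0.42, with 17 above 0, and 6 higher against 1 lower by the 2-fold rule, where the chromosome as a whole had a median of -0.30. VHL on chromosome 3 stood among lower neighbours (TADA3 to CAND2, median -0.79, 5 of 20 at least 2-fold lower and 0 higher). The ratio of its brightest probe, -0.28, was above that median. The bound of the VHL probe detected in the wild type only, -0.93, was below it. The neighbours of EGLN1 (median 0.02), BNIP3 (0.01), VEGFA (-0.10) and EPAS1 (-0.14) lay near 0. Around the undetected genes the medians were 0.49 for ARNT and -0.74 for EGLN3. The part of such regional shifts in the ratio of a member was not tested, and no ratio was adjusted for them.

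**Figure D4:**
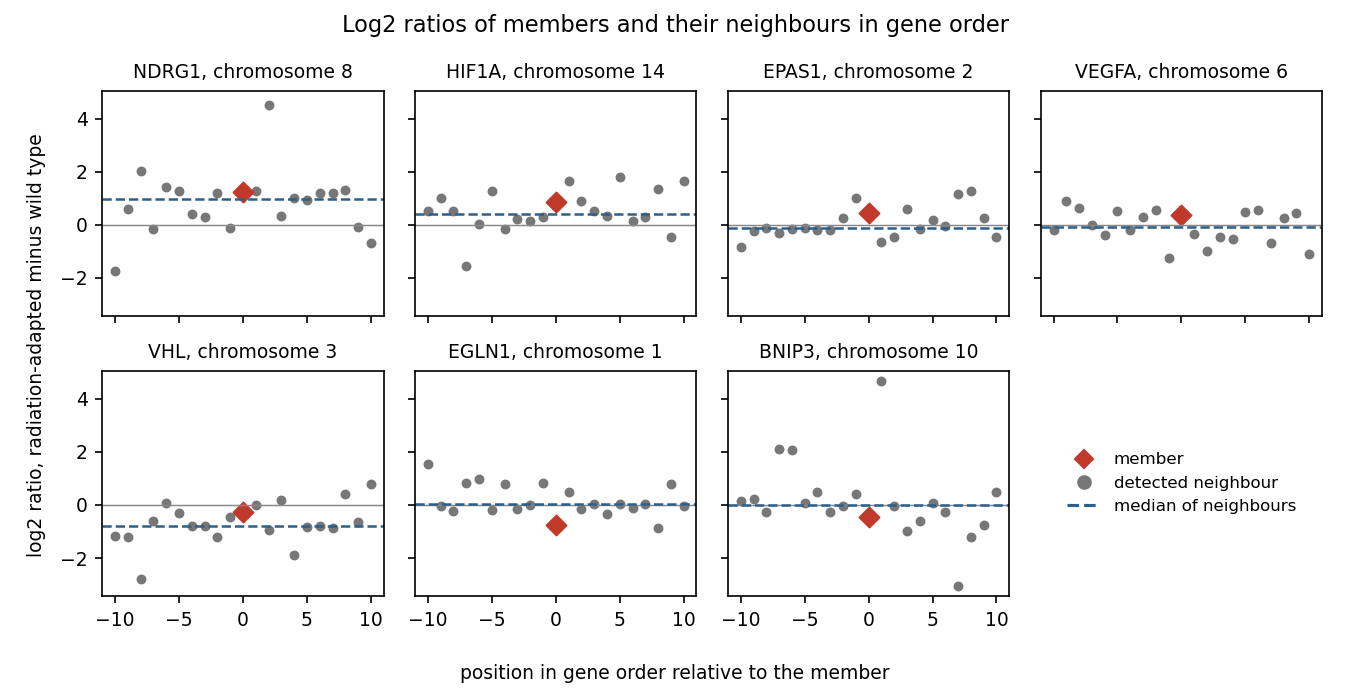
Log2 ratio, radiation-adapted minus wild-type value, for each detected member (diamond) and its 10 detected neighbours on either side in gene order (dots), with the median of the neighbours as a dashed line. NDRG1 lies within the wide spread of its neighbours (median 0.97). The chosen VHL probe lies above the median of its neighbours (-0.79), and EGLN1 lies below a neighbour median near 0.

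The wider oxygen sensing machinery was compared through 20 further genes, of which 18 had a probe and 15 were detected. Of the 15, 3 were higher and 1 lower by the 2-fold rule (background 12.4% and 10.3%), with a median of -0.15. Without background correction 0 of them were higher (background 6.06%), and with the mean of probes 2 (background 11.5%). EP300 and CREBBP encode the paired coactivators that HIF recruits. EP300 had a bead signal of 535.6 in radiation-adapted and 240.4 in wild-type cells, 2.70-fold higher. CREBBP had 848.3 in radiation-adapted and 421.6 in wild-type cells, 2.01-fold higher at the edge of the rule, and its other probe, detected in the radiation-adapted cells only, had a bound of 0.31. Their neighbours on chromosomes 22 and 16 had medians of -0.28 and -0.25, and both genes lay above those medians. By the 2-fold rule 3 of the 20 neighbours of EP300 were higher and 2 lower. Of the 20 neighbours of CREBBP 1 was higher and 2 were lower. ARNT2, a paralogue of ARNT, had 226.9 in radiation-adapted cells and 127.6 in wild-type cells, where it was below detection, and was at least 2.07-fold higher. P4HTM, which encodes a membrane-bound prolyl hydroxylase of the endoplasmic reticulum, was 12.3-fold lower, with signals of 161.9 in radiation-adapted and 612.9 in wild-type cells. Its radiation-adapted value (log2 5.46) was close to the lowest detected signal of that array (5.36), which limits the fold. The other 2 P4HTM probes were detected in the wild type only, with bounds of -2.91 and -0.88. P4HTM lies on chromosome 3 where 13 of its 20 neighbours were at least 2-fold lower (median -1.26). The core ligase subunit genes ELOB (-0.33), RBX1 (-0.25), CUL2 (0.08) and ELOC (0.34), the hydroxylase gene EGLN2 (-0.31) and HIF1AN (-0.15), which encodes the asparaginyl hydroxylase FIH, all lay within 2-fold. The second EGLN2 probe had a ratio of 0.22.

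Other inducible targets, glycolytic enzymes left aside, lay past 2-fold on both sides. Of 40 listed genes 38 had a probe and 31 were detected, 4 of them higher and 5 lower by the 2-fold rule (background 12.4% and 10.3%), with a median of -0.02. With median scaling 7 were higher and 3 lower, where the background was 16.5% and 8.13%, and with no scaling 8 and 3, where it was 18.3% and 7.22%. Without background correction 4 were higher and 2 lower (background 6.06% and 4.91%), and among genes detected on both arrays 4 and 3 (background 10.9% and 10.4%). ADM, which encodes the vasodilator adrenomedullin, had 1567.8 in radiation-adapted and 186.3 in wild-type cells, 17.2-fold higher. ANGPTL4, a secreted inhibitor of lipoprotein lipase, had 1996.3 in radiation-adapted and 313.4 in wild-type cells, 8.18-fold higher, with a ratio of 1.53 at 1 other probe and a bound of 0.04 at another. TGFA, an EGF receptor ligand gene, had 537.9 in radiation-adapted and 172.0 in wild-type cells, 5.92-fold higher, and its other probe had a ratio of 2.61. The wild-type values of ADM and TGFA (log2 6.36 and 6.03) were dim, where the lowest detected signal was 5.60, which limits these folds. TFRC, the transferrin receptor gene, was 2.09-fold higher. These 4 targets are the ones past 2-fold on the higher side.

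On the lower side, DDIT4, an mTORC1 inhibitor gene, had 736.0 in radiation-adapted and 7810.5 in wild-type cells, 12.6-fold lower. BHLHE40, a circadian repressor gene, had 161.2 in radiation-adapted and 350.4 in wild-type cells, 6.13-fold lower. Its radiation-adapted value (log2 5.44) was close to the lowest detected signal of that array (5.36), which limits the fold. The lipoprotein receptor gene VLDLR was at least 3.78-fold lower, the MYC antagonist gene MXI1 at least 2.06-fold lower, and P4HA2, a collagen prolyl hydroxylase gene, 2.22-fold lower with a ratio of -1.02 at its other detected probe. BHLHE40 lies on chromosome 3, and its neighbours had a median of -0.77. The neighbours of DDIT4 had a median of -0.20 and those of ADM, ANGPTL4 and TGFA medians of 0.26, 0.12 and 0.19. DDIT4 is also known as a target of the ATF4 stress pathway. BNIP3L, the close paralogue of BNIP3, had ratios of -0.02 and -0.49 at its probes, the glucose transporter gene SLC2A1 had 0.48 and SLC2A3 0.86.

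**Figure D5:**
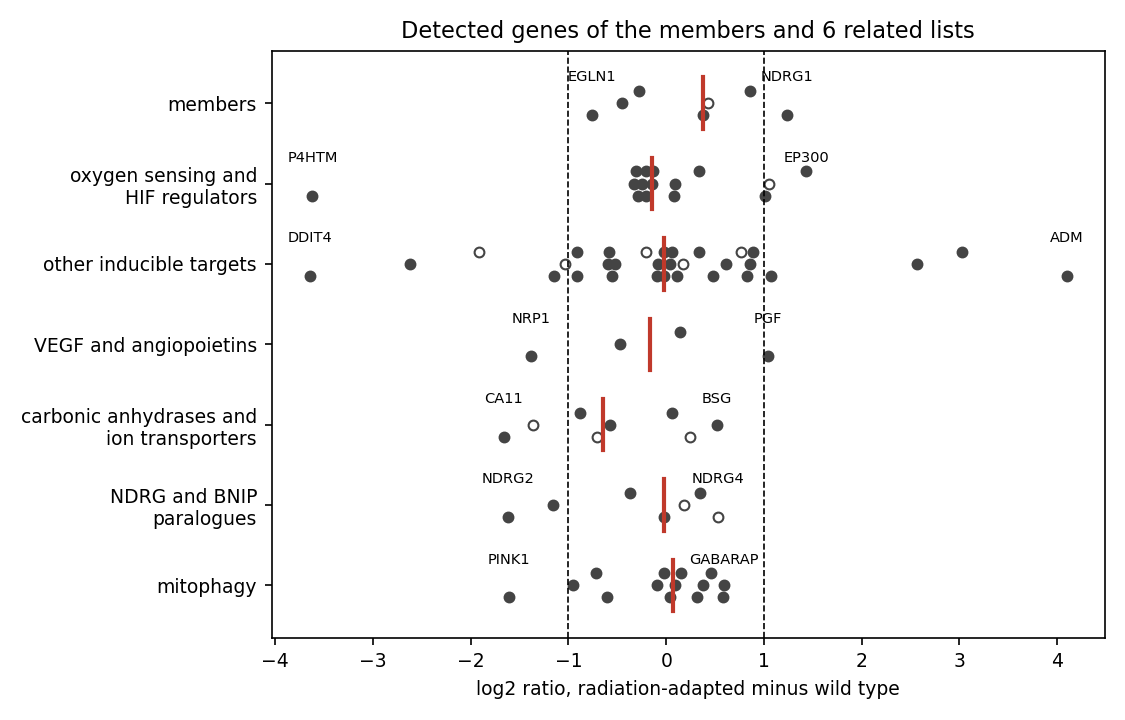
Log2 ratio, radiation-adapted minus wild-type value, for every detected gene among the members and the 6 related lists, with open points for bounds, a red bar for the median and the lowest and highest gene of each named. Genes past the dashed 2-fold lines occur on both sides in the 31 inducible targets, from DDIT4 (-3.65) to ADM (4.10), while the members span -0.76 to 1.24.

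The VEGF axis beyond VEGFA was mostly below detection. Of 13 ligand and receptor genes 4 were detected. PGF, which encodes placental growth factor, had 646.0 in radiation-adapted and 325.9 in wild-type cells, 2.06-fold higher. NRP1, a VEGF co-receptor gene, had 195.4 in radiation-adapted and 280.6 in wild-type cells, 2.61-fold lower, and its other probe, detected in the wild type only, had a bound of -1.13. Without background correction neither PGF nor NRP1 was past 2-fold. VEGFB had a ratio of 0.14 and ANGPT1 of -0.47, though the other ANGPT1 probe, detected in the radiation-adapted cells only, had a bound of 0.18. The receptor tyrosine kinase genes FLT1, KDR, FLT4, TEK and TIE1 were not well above background on either array.

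Carbonic anhydrases and acid transporters were examined beside the missing CA9. Of 21 genes 18 had a probe and 8 were detected, 0 of them higher and 2 lower by the 2-fold rule (background 12.4% and 10.3%), with a median of -0.65. Without background correction, or with an offset of 50, 1 was lower. The lower genes were CA11, a catalytically inactive family member (251.9 in radiation-adapted and 465.9 in wild-type cells, 3.16-fold lower), and CA14, a membrane-bound enzyme gene (at least 2.57-fold lower). The anion exchanger gene SLC4A2 had a ratio of -0.88. BSG, the chaperone of lactate transporters, had the highest ratio, 0.52, followed by the bound of CA3 (0.24) and CA13 (0.06). CA12, the other tumour-associated membrane enzyme gene, was not well above background at either of its probes.

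Of the 3 paralogues of NDRG1, NDRG2 and NDRG3 had ratios on the other side of 0. NDRG2 had 259.3 in radiation-adapted and 476.3 in wild-type cells, 3.07-fold lower, with a ratio of -1.06 at its other probe. NDRG3 had 554.3 in radiation-adapted and 969.7 in wild-type cells, 2.23-fold lower, with a ratio of -1.84 at its other probe. NDRG4 was at least 1.45-fold higher. Among the BNIP genes BNIP1 had a ratio of -0.37, BNIP2 of 0.35 and BNIPL a bound of 0.18. Of the 7 paralogues, all of them detected, 0 were higher and 2 lower by the 2-fold rule (background 12.4% and 10.3%). Without background correction or with no scaling 1 was lower, and with no detection filter 2 were higher (background 9.07%), where NDRG4 had a ratio of 1.17 and BNIPL of 1.10.

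Genes that act with BNIP3 in mitophagy, the removal of mitochondria by autophagy, were all detected on both arrays where they had a probe (14 of 14). By the 2-fold rule 0 were higher and 1 was lower (background 12.4% and 10.3%), with a median of 0.07. PINK1, the kinase gene that marks damaged mitochondria, had 369.1 in radiation-adapted and 766.7 in wild-type cells, 3.05-fold lower, where its neighbours on chromosome 1 had a median of -0.41. GABARAPL1 (-0.95) and FKBP8 (-0.72) followed. GABARAP (0.59), MAP1LC3B (0.58) and OPTN (0.46) had the highest ratios of the list.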

How the data were processed

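The unprocessed table deposited by the authors holds, per the file headers, a mean bead signal (a linear intensity, neither background-subtracted nor scaled between arrays as its values show) and a detection p-value for each of 47323 probes. A second table deposited by the authors holds a processed linear intensity that reaches below 0 and has the same median (10.6) in both columns. The origin of either table was not stated. Per the labels' protocols, Trizol RNA was amplified into biotinylated cRNA. Background was corrected with limma 3.58.1 (neqc, controls inferred from the detection p-values, offset of 16, quantile normalization, log2) in R 4.3.3. The offset shrinks ratios of dim probes. The platform annotation named 1 gene for 30113 probes, several for 8 and none for 17202. Probes with several genes or none were left out. Where 1 array detected a gene, the dim value was set to at least the lowest detected signal of that array (log2 5.36 radiation-adapted, 5.60 wild type) and the ratio is a bound. RefSeq (GRCh38.p14) gave chromosomes for 11344 of 11352 detected genes. Promoter windows were used for 6 of the 9 members with a probe. Member windows on chromosome 8, where NDRG1 lies, were left out in processing, so whether NDRG1 holds a core was not examined. The number of arrays limits the precision. Members and lists were chosen with earlier results of these data known. Named genes are the members, and of each list those past 2-fold with the 3 highest and 3 lowest, beside some pathway genes chosen after their values were seen. Tried alternatives were median or no scaling, no background correction, an offset of 50, the processed table, other detection filters, the mean of probes and a 1.5-fold rule. For the processed table, values below 0 were set to 0 and the same offset of 16 was added before log2. It holds the same 2 arrays, so its closeness to the main values is no separate check.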

Additional observations from a re-analysis of the deposited data

How the results depend on the processing

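NDRG1 was the 1 member at least 2-fold higher with the processed table, a detection p-value under 0.05, detection on both arrays and the mean of probes. With median scaling or no scaling 2 members were (HIF1A at 2.21-fold and 2.32-fold), as with no detection filter (EPAS1 at 3.17-fold) and under a 1.5-fold rule (HIF1A). Without background correction, or with an offset of 50, which shrink the ratios of dim probes, 0 were higher (NDRG1 1.49-fold and 1.90-fold). The 1.5-fold rule gave 1 lower member, EGLN1, and the other 9 alternatives gave 0. No member detected in the main values changed sign, with ranges of 0.45 to 1.21 for HIF1A, 0.58 to 1.59 for NDRG1, 0.21 to 0.71 for VEGFA, -0.76 to -0.38 for EGLN1, -0.47 to -0.37 for BNIP3 and -0.50 to -0.08 for VHL, and 0.14 to 1.66 for EPAS1, which has no value when both arrays must detect it. For EPAS1 the sign was no check, because its values were bounds except with no detection filter. For VHL the sign held at the chosen probe and for the mean of probes. Another VHL probe detected on both arrays had a ratio of 0.09. Over the 77 detected genes of the 6 lists, 8 were at least 2-fold higher and 12 lower (all genes 12.4% and 10.3%). Without background correction these counts were 4 and 6 (all genes 6.06% and 4.91%), and under the 1.5-fold rule 14 and 21 (22.9% and 21.1%). The higher count was 5 with an offset of 50 (all genes 9.25%) and 13 with no detection filter (9.07%). The median of the detected members was 0.14 without background correction, 0.21 with the mean of probes and 0.27 with an offset of 50, against 0.38. Of all genes past 2-fold, 54.6% were higher, against 67.0% with median scaling and 71.7% with no scaling, which moved the median of all genes to 0.16 and 0.23. No paired analysis was possible because each group has 1 array. The chosen probes of HIF1A, EPAS1, EGLN1 and NDRG1 had bead signals of 114.1 to 302.4, on arrays with medians of 142.4 and 140.3, which limits their ratios.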

Other observations

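Over all detected genes with a RefSeq promoter window, those that held the core ACGTG were compared with the others, a split made after the data were seen. A gene counted as holding it when any of its windows did, so genes with more starts had more chances. The 3009 genes whose window held it had a median ratio of -0.01, and by the 2-fold rule 10.4% of them were higher and 10.2% lower in the radiation-adapted cells. The 6093 genes without it had the same median, -0.01, and 12.3% of them were higher and 10.3% lower. Of 25 inducible targets with a window, 14 (56%) held the core, against 33.1% of 9102 detected genes. That list was made from known targets, so the difference describes the listed genes and not a change between the 2 arrays.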
